A study of Mus musculus with 16 samples.

Results

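Transcript levels in mandibular molar germs were compared between 4 pools from *Rsk2-/Y* embryos and 4 pools from wild-type (WT) embryos, the 8 pools of 16 in the series whose names begin with ABH. The other 8 pools, named AZN, entered only AZN differences set beside or against ABH differences, and the fit of all 4 groups. That fit, an alternative, took its spread from all 16 pools. All pools came from embryos of the C57Bl6 background at embryonic day 14.5 (E14.5), the cap stage, and the germs were hybridised to Affymetrix arrays that read whole transcripts. The *Rsk2-/Y* embryos were males that carry a constitutive deletion of exon 2 of the X-linked gene *Rps6ka3* (*Rsk2*), which shifts the reading frame, and the WT embryos were littermate males with an intact gene. Each pool held 4 tooth germs and gave 150 ng of RNA per array according to the labels, while the methods of the study give 2 embryos and 300 ng. What ABH stands for, and which pools share a litter, are not given in the sources used here. The p-values therefore measure the spread between these pools, and the number of arrays limits the precision. The comparison covered 19743 probe sets that pair with a gene symbol and had a log2 signal above 5 in at least 1 of the 8 pools, and 17002 genes had such a probe set of their own.

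RSK2 is a serine/threonine kinase at the end of the RAS-ERK cascade, and its loss causes Coffin-Lowry syndrome in humans. A cap-stage tooth germ is a cap of oral epithelium around a condensed, neural crest derived mesenchyme. A knot of epithelial cells at its centre, the enamel knot, secretes SHH and members of the WNT, BMP and FGF families, and its signals shape the crown. The comparison asks which transcripts of either tissue differ when RSK2 is missing, in a model that forms an extra tooth in front of the first molar.

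Array medians ran from 6.80 to 6.94 (log2 signal) and pools correlated at 0.9882 to 0.9973 across probe sets. The dental mesenchyme genes *Msx1*, *Pax9*, *Barx1*, *Dlx2*, *Lhx8* and *Prrx1* had signals of 10.2 or more in each of the 8 pools. Epithelial markers were present too, with *Krt14* at 11.4 to 11.7 and *Epcam* at 9.14 to 9.50. The *Rsk2-/Y* pool ABH_14A stood apart. Its mean over 38 skeletal muscle markers was 8.76, against 7.09 to 7.88 in the other 7 pools, and its mean over 29 dental mesenchyme markers was 9.69, against 9.86 to 9.99. Liver-type plasma protein transcripts were high in a WT pool and a *Rsk2-/Y* pool, ABH_13A (mean 8.17) and ABH_15A (mean 7.67), against 5.84 to 6.50 elsewhere. *Xist*, which marks female tissue, was at 7.41 in ABH_15A and at 5.02 to 6.14 in the other pools, and the Y-linked gene *Kdm5d* was at 8.67 to 8.95 in all 8. In bulk tissue, fewer cells of a type and less RNA per cell cannot be told apart.

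Transcripts of 1 microRNA gene rose in *Rsk2-/Y* molars, and those of a tight junction gene and a tetraspanin gene fell. With the thresholds of the study, a false discovery rate below 0.1 and at least a 1.2-fold change, limma called 1 of 17002 genes higher (0.00588%) and 2 lower (0.0118%). They were *Mir125b-1*, *Cldn6* and *Cd9*, each with an adjusted p of 0.0372. At an unadjusted p under 0.05, 595 genes were higher (3.5%) and 1527 were lower (8.98%). The 4 *Rsk2-/Y* pools lay wholly above the 4 WT pools for 385 genes (2.26%) and wholly below them for 998 (5.87%). Over all 19743 probe sets these numbers were 1 (0.00507%) and 2 (0.0101%) called, 873 (4.42%) and 1698 (8.6%) at that p, and 560 (2.84%) and 1124 (5.69%) without overlap. Differences were below 0 for 10763 genes (63.3%), with a median of -0.03 on the log2 scale. The split of directions rested partly on how arrays were scaled. Among probe sets at an unadjusted p under 0.05, 34.0% were higher with the deposited values, 52.4% (1213 against 1102) after each array was centred on its median and 28.4% (853 against 2153) after quantile normalization. Leaving out any 1 of the 4 WT pools, or the *Rsk2-/Y* pool ABH_26A, ended all 3 calls (limma, adjusted p from 0.114 to 0.278). With each of the 8 pools left out in turn, the difference ran from 0.48 to 0.54 for *Mir125b-1*, from -0.48 to -0.45 for *Cldn6* and from -0.54 to -0.48 for *Cd9*.

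**Figure D1:**
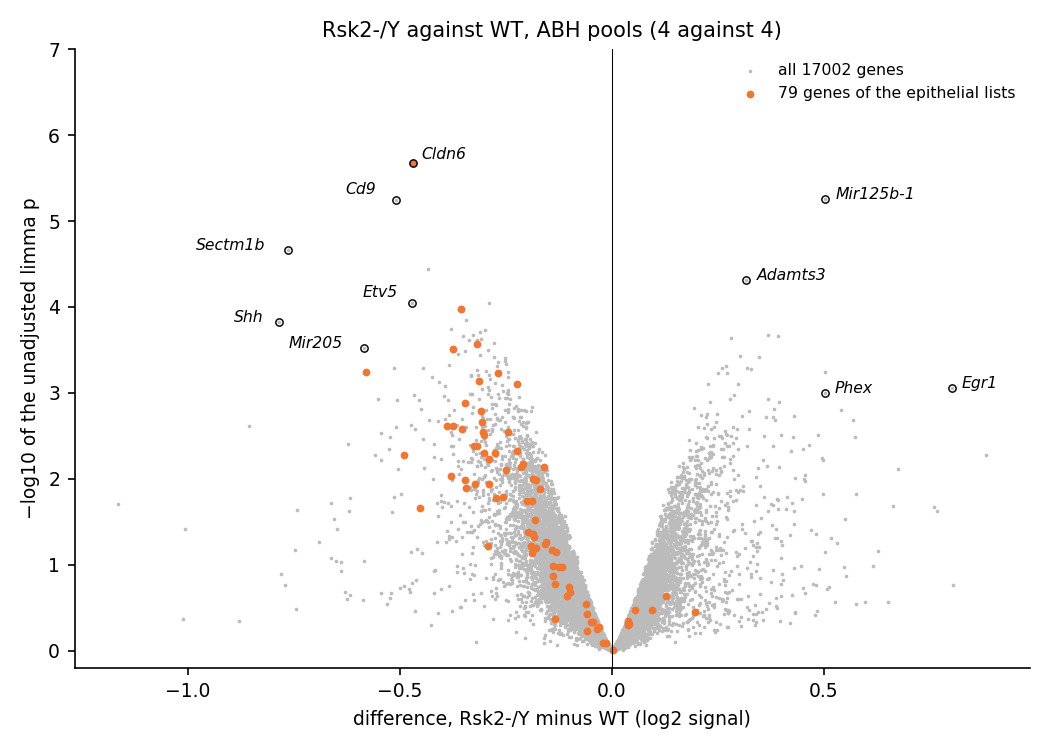
Difference between *Rsk2-/Y* and WT (log2 signal, x axis) against the unadjusted p from limma (as −log10, y axis) for 17002 genes, with 4 pools in each group. Orange points are the 79 genes of the epithelial lists, and names mark the 3 called genes and 7 others described in the text. More points with small p lie to the left of 0 than to the right, 1527 against 595 at p under 0.05.

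*Mir125b-1* encodes the precursor of miR-125b, a microRNA with known roles in the timing of differentiation. Its signal was 5.83, 5.91, 5.79 and 5.97 in the WT pools and 6.43, 6.31, 6.36 and 6.41 in the *Rsk2-/Y* pools. The groups did not overlap, and both lay close to the signal minimum of 5. The difference was 0.50 (standard error 0.056) in ABH and -0.22 in AZN, and the test of the difference between the series did not pass (limma, adjusted p = 0.748). Without ABH_15A or ABH_16A the call was also lost (limma, adjusted p = 0.115 and 0.157). RefSeq places the precursor at chr9:41581926-41582002 on the plus strand of GRCm38.p6. Which part of the locus the probe set reads is not given in the sources used here, and its signal is not taken as a level of the mature microRNA. The mature sequences of the microRNAs described here are shown from RefSeq (GRCm38.p6), 5′ to 3′, with the seed, bases 2 to 8, in capitals, because the seed groups the microRNAs that can pair with the same targets. Of those shown, miR-125a shares the seed of miR-125b, and the others have seeds of their own.
mmu-miR-125b-5p: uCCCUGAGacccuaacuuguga
mmu-miR-125a-5p: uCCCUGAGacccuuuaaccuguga
mmu-miR-100-5p: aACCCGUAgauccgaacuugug
mmu-miR-205-5p: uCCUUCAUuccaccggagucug
mmu-miR-181b-5p: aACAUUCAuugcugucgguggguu
mmu-miR-16-5p: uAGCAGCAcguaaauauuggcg

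A locus with the same seed, *Mir125a*, differed by 0.05, with WT pools at 7.33 to 7.42 and *Rsk2-/Y* pools at 7.28 to 7.68, so the groups overlapped. *Mir125b-2*, whose mature sequence is that of miR-125b, had a signal of 3.60 to 3.95 and was not tested, and *Mir351*, *Mir6394* and *Mir6367*, which RefSeq lists with the same seed, were not analysed here. The cluster neighbours of *Mir125b-1* were *Mir100*, with a difference of 0.16, and *Mirlet7a-2*, with 0.19, and neither passed (limma, adjusted p = 0.635 and 0.377). Single pools moved both, to 0.05 for *Mir100* without ABH_11A and to 0.13 for *Mirlet7a-2* without ABH_14A. *Mir205*, a microRNA of stratified epithelia transcribed from the minus strand at chr1:193507463-193507530, went the other way. It was at 7.42, 7.80, 7.59 and 7.92 in WT and at 7.14, 7.23, 7.06 and 6.95 in *Rsk2-/Y*, with no overlap and a difference of -0.59 (standard error 0.107, adjusted p = 0.151 from limma). *Mir181b-2* had a difference of 0.55, which was 0.29 without ABH_14A. That pool was at 8.91, the remaining *Rsk2-/Y* pools at 7.78 to 7.89 and the WT pools at 7.47 to 7.71. *Mir16-1* differed by 0.22 at signals of 5.01 to 5.40. Over 185 microRNA loci the median difference was 0.01. With an unadjusted p under 0.05, 12 loci were above 0 (6.49%, against 3.5% of all genes) and 7 below (3.78%, against 8.98%). Without ABH_14A the median was -0.07, and 7 loci were above and 39 below 0 at that p (21.1% below, against 11.6% of all genes). Their mean was 6.83 in ABH_14A and 6.38 to 6.53 in the other 7 pools.

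*Cldn6* encodes claudin 6, a tight junction protein of embryonic epithelia. Its signal was 10.71, 10.71, 10.72 and 10.78 in WT and 10.20, 10.31, 10.29 and 10.26 in *Rsk2-/Y*. Every *Rsk2-/Y* pool lay below every WT pool, and the fall of 0.47 (standard error 0.047, 95% confidence interval -0.58 to -0.36) was a fold change of -1.38. *Cd9* encodes a tetraspanin that organises adhesion receptors in the membrane. It was at 9.34, 9.29, 9.19 and 9.24 in WT and at 8.67, 8.77, 8.86 and 8.72 in *Rsk2-/Y*, again with no overlap, and it fell by 0.51 (standard error 0.057). The call for *Cd9* was lost without ABH_15A (limma, adjusted p = 0.154) and with pools blocked by the run of code numbers, 11 to 16 against 25 and 26 (adjusted p = 0.107). In AZN the differences were -0.24 for *Cldn6* and -0.11 for *Cd9*, and no test of the difference between the series passed for either (limma, adjusted p = 0.839 and 0.748).

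**Figure D2:**
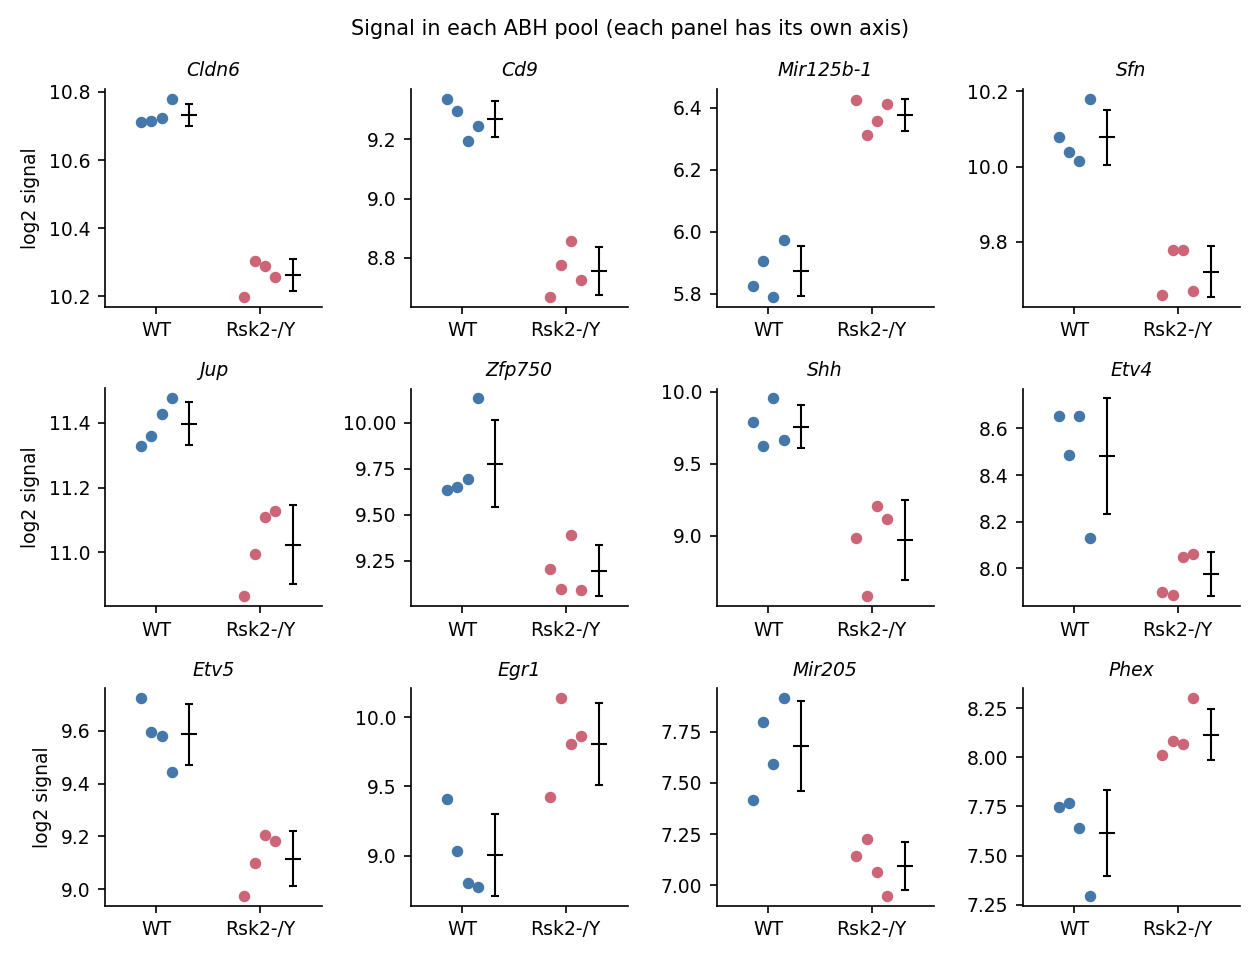
Log2 signal of 12 genes in each ABH pool (blue points WT, red points *Rsk2-/Y*), where bars give mean and SD over 4 pools and each panel has its own axis. The 4 *Rsk2-/Y* pools of *Cldn6*, from 10.20 to 10.31, sit below the 4 WT pools, from 10.71 to 10.78, and those of *Mir125b-1*, from 6.31 to 6.43, sit above WT, from 5.79 to 5.97.

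Beyond *Cldn6*, the epithelial genes lay lower in *Rsk2-/Y* pools as a group without passing the test one by one. The list called dental epithelium markers holds genes that other epithelia express too. Tooth epithelium and any other epithelium in the pools were therefore not told apart. Of 28 measured markers, 28 had a difference below 0, against 63.3% of all genes. At an unadjusted p under 0.05, 20 were lower (71.4%, against 8.98% of all genes), with a median of -0.22 against -0.03 over all genes. The mean of these markers was 9.76, 9.74, 9.80 and 9.89 in WT and 9.58, 9.52, 9.60 and 9.50 in *Rsk2-/Y*, so the groups did not overlap. *Sfn*, which encodes the epithelial 14-3-3 protein stratifin, was at 10.01 to 10.18 in WT and 9.66 to 9.78 in *Rsk2-/Y* (difference -0.36). *Jup*, which encodes plakoglobin of desmosomes and adherens junctions, was at 11.33 to 11.48 and 10.86 to 11.13 (-0.37). *Spint1*, an inhibitor of membrane serine proteases, had a difference of -0.39. Each of these 3 had an adjusted p of 0.151 to 0.193 (limma). Without ABH_14A, 22 of the 28 markers were lower at an unadjusted p under 0.05, where the share over all genes was 11.6%, and without both ABH_25A and ABH_26A 14 were lower, where it was 6.36%.

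Transcription factors of epithelia showed the same side of 0 in 23 of 26, with a median of -0.19. At an unadjusted p under 0.05, 12 were lower (46.2%, against 8.98% of all genes). *Zfp750*, a factor of epidermal differentiation, was at 9.63, 9.65, 9.69 and 10.13 in WT and 9.21, 9.10, 9.39 and 9.09 in *Rsk2-/Y*. The groups did not overlap, and its difference was -0.58 with ABH_25A and -0.46 without it. *Grhl3* and *Ovol1*, which act in epithelial barrier formation, each had a difference of -0.31, and *Tbx1*, which is needed in the dental epithelium, had one of -0.35. None of these 4 passed (limma, adjusted p from 0.151 to 0.178). Without both ABH_25A and ABH_26A the median of the list was -0.10, the only list median described here that moved by more than its spread between pools when that pair was left out.

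Junction and adhesion genes had a median of -0.18 over 33 genes, and 19 were lower at an unadjusted p under 0.05 (57.6%, against 8.98% of all genes). *Nectin1*, an adhesion molecule whose loss disturbs enamel formation, was at 9.74 to 9.86 in WT and 9.35 to 9.54 in *Rsk2-/Y* (difference -0.32). *F11r*, which encodes the junctional adhesion molecule JAM-A, was at 9.36 to 9.48 and 9.06 to 9.21 (-0.27), and *Marveld3* at 7.05 to 7.11 and 6.79 to 6.90 (-0.22). The groups did not overlap for any of these 3 genes. The markers, junction genes and epithelial factors together held 79 genes, since some stood on more than 1 list. Of these, 71 were below 0, 45 were lower and 0 higher at an unadjusted p under 0.05, and 36 had no overlap between the groups with *Rsk2-/Y* lower. Over all genes the shares were 63.3% below 0, 8.98% lower, 3.5% higher and 5.87% without overlap and lower. The median of the 79 genes was -0.19 in ABH and -0.19 in AZN. In AZN the skeletal muscle and osteoblast markers had medians of 0.61 and 0.45 beside it, against 0.29 and 0.10 in ABH, and their part in the epithelial difference was not tested.

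Within the claudins, 18 of 21 were below 0 with a median of -0.11, and 4 (19%, against 8.98% of all genes) were lower at an unadjusted p under 0.05. *Cldn1*, which seals the epidermal barrier, differed by -0.56, with ABH_25A at 10.83 and the other WT pools at 10.13 to 10.24, and by -0.40 without that pool. *Cldn7* had a difference of -0.21 with no overlap, while *Cldn4* had one of -0.27 and the groups overlapped. Among 28 tetraspanins, 26 were below 0 and 5 were lower at an unadjusted p under 0.05 (17.9%, against 8.98% of all genes). *Tspan5* differed by -0.25 and *Cd151*, which binds laminin receptors, by -0.18, both with no overlap. The tetraspanin median was -0.11 and moved to -0.07 without ABH_14A, and it was 0.00 in AZN.

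Keratins had 40 of 43 genes below 0, against 63.3% of all genes, and a median of -0.13. *Krt79* was at 6.74 to 6.98 in WT and 6.46 to 6.57 in *Rsk2-/Y* (difference -0.34), and *Krt80* at 8.16 to 8.49 and 7.78 to 8.07 (-0.37). *Krt75*, a keratin of hair follicles that enamel also contains, differed by -0.31, and *Krt19*, a keratin of dental epithelium, by -0.32. WT values for *Krt1* ran from 7.62 to 8.70 with ABH_25A highest, and its difference of -0.62 became -0.38 without that pool. *Ly6d*, a surface protein of stratified epithelia, behaved alike, with ABH_25A at 7.92 and the other WT pools at 6.85 to 7.02, a difference of -0.86, and -0.61 without ABH_25A. *Sectm1b* was at 7.17, 7.28, 7.20 and 7.46 in WT and 6.36, 6.44, 6.80 and 6.45 in *Rsk2-/Y*, with a difference of -0.76 (limma, adjusted p = 0.107). It passed after each array was centred on its median (adjusted p = 0.0695) and without ABH_16A (adjusted p = 0.0434). With any other single pool left out it did not pass (limma, adjusted p up to 0.3225).

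**Figure D3:**
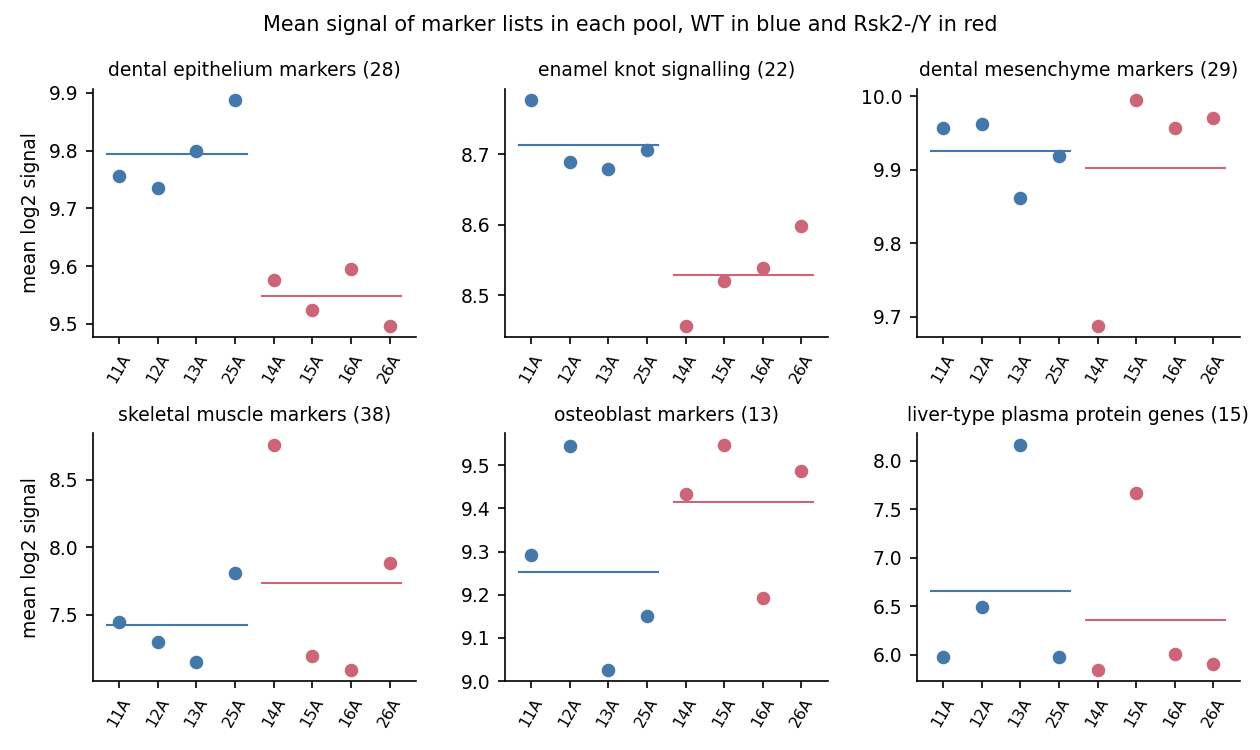
Mean log2 signal of the genes of 6 lists in each ABH pool (blue points WT, red points *Rsk2-/Y*), where lines give the mean over 4 pools and each panel has its own axis. Epithelial marker means separate the genotypes, 9.74 to 9.89 against 9.50 to 9.60, whereas the skeletal muscle mean is carried by ABH_14A at 8.76.

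Enamel knot signalling genes were below 0 in 18 of 22, with a median of -0.19. At an unadjusted p under 0.05, 13 were lower (59.1%, against 8.98% of all genes). This list shares genes with the Hedgehog, WNT, FGF and BMP and TGF-beta lists below, *Shh*, *Wnt10a*, *Fgf4* and *Msx2* among them. Their counts are therefore not separate results. *Shh*, the hedgehog ligand of the enamel knot, was at 9.79, 9.63, 9.96 and 9.66 in WT and 8.99, 8.58, 9.21 and 9.12 in *Rsk2-/Y*. Every *Rsk2-/Y* pool lay below every WT pool, and the fold change was -1.72 (difference -0.78, standard error 0.131, adjusted p = 0.151 from limma). The Hedgehog target *Gli1* differed by -0.36, with ABH_15A at 9.02 and the remaining *Rsk2-/Y* pools at 9.60 to 9.64, and by -0.21 without ABH_15A. *Cdon*, which encodes a hedgehog co-receptor, was on the other side of 0, at 6.32 to 6.67 in WT and 6.81 to 7.48 in *Rsk2-/Y* (0.50, and 0.35 without ABH_14A). In AZN, *Shh*, *Gli1* and *Cdon* differed by -0.35, 0.09 and -0.19, so *Gli1* and *Cdon* lay on the opposite side of 0. The 21 Hedgehog genes had a median of -0.01. At an unadjusted p under 0.05, 4 were lower (19%, against 8.98% of all genes) and 1 higher (4.76%, against 3.5%). Without ABH_14A, 3 were lower (14.3%, against 11.6% of all genes) and 4 higher (19%, against 5.82%). *Slit1*, a marker of the knot, differed by -0.22, and *Msx2* by -0.26, both with no overlap. *Fgf4*, *Fgf20* and *Bmp4*, signals of the knot or the mesenchyme named after their values were seen, had differences of 0.06, 0.07 and 0.02.

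WNT pathway genes had a median of -0.06. At an unadjusted p under 0.05, 16 of 55 were lower (29.1%, against 8.98% of all genes) and 0 higher (against 3.5%). Without ABH_14A, 14 were lower (25.5%, against 11.6% of all genes) and 5 higher (9.09%, against 5.82%), with a median of -0.04. The ligands *Wnt10a*, which is needed for normal tooth number in humans, and *Wnt6* differed by -0.28 and -0.21. *Rspo4*, an agonist of WNT receptors, was at 7.43 to 7.96 in WT and 6.61 to 7.43 in *Rsk2-/Y* (-0.62), and the WNT antagonist *Sfrp5* at 6.29 to 6.62 and 5.98 to 6.25 (-0.32). None of the 4 overlapped between the groups, though ABH_11A and ABH_16A were nearly level for *Rspo4*. In AZN, *Wnt10a*, *Wnt6*, *Rspo4* and *Sfrp5* differed by -0.14, -0.03, 0.18 and -0.15, so *Rspo4* lay on the opposite side of 0. In the Notch pathway the ligand *Jag2*, the modulator *Lfng* and the feedback gene *Nrarp* differed by -0.21, -0.33 and -0.30. Of 27 Notch genes, 5 were lower at an unadjusted p under 0.05 (18.5%, against 8.98% of all genes). Their median was -0.08, and -0.04 without ABH_14A. The BMP inhibitor *Fst* and the BMP target *Id1* differed by -0.30 and -0.17 in a BMP and TGF-beta list of 47 genes with a median of -0.02, which was 0.01 without ABH_14A. In the FGF pathway list, an unadjusted p under 0.05 was reached by 1 higher and 1 lower gene of 27. That is 3.7% each, against 3.5% higher and 8.98% lower over all genes. The 2 genes lay on either side of 0. They were *Fgf7*, a mesenchymal ligand, at 6.74 to 7.09 in WT and 7.12 to 7.35 in *Rsk2-/Y* (0.32), and *Fgfbp1*, a secreted carrier of FGFs, at 6.94 to 7.11 and 6.58 to 6.81 (-0.32).

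Genes transcribed in response to ERK were below 0 in 23 of 29, with members on both sides at an unadjusted p under 0.05. *Etv5*, an ETS factor induced by FGF signalling, was at 9.73, 9.60, 9.58 and 9.45 in WT and 8.98, 9.10, 9.21 and 9.18 in *Rsk2-/Y*, with no overlap (difference -0.47, standard error 0.074). Its difference was -0.58 in AZN. The related *Etv4* was at 8.65, 8.49, 8.65 and 8.13 in WT and 7.90, 7.89, 8.05 and 8.06 in *Rsk2-/Y* (-0.51). *Phlda1*, a gene induced by growth factors, differed by -0.41 and *Ccnd1*, which encodes cyclin D1, by -0.24. *Egr1*, an immediate early factor, was at 9.41, 9.04, 8.81 and 8.77 in WT and 9.42, 10.14, 9.80 and 9.86 in *Rsk2-/Y*, so that ABH_14A and the WT pool ABH_11A were level and the difference was 0.80. Its relative *Egr2* had a difference of 0.76. The feedback inhibitors *Spry2*, *Spry4* and *Dusp6*, which were named with *Egr2* after their values were seen, had differences of -0.07, -0.03 and -0.06. The 29 ERK target and feedback genes had a median of -0.07, which was -0.02 without ABH_14A. With an unadjusted p under 0.05, 3 lay above 0 (10.3%, against 3.5% of all genes) and 6 below (20.7%, against 8.98%). None passed the test (limma, adjusted p = 0.151 for *Etv5*, 0.172 for *Etv4* and 0.170 for *Egr1*).

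In the kinase cascade itself little differed. *Rps6ka3* was at 10.22, 10.08, 10.19 and 10.19 in WT and 10.08, 10.37, 10.40 and 10.40 in *Rsk2-/Y*, a difference of 0.14 (limma, adjusted p = 0.473), and 0.22 without ABH_14A. Which exons the single probe set of *Rps6ka3* reads is not given in the sources used here, and a deletion of exon 2 leaves the rest of the transcript to be measured, so the signal is no check of the labels. *Rps6ka5*, which encodes the related kinase MSK1, differed by 0.17, and *Rps6ka6*, which encodes RSK4, by 0.00. Of 14 measured RSK, MSK and ERK cascade genes 2 (14.3%, against 3.5% of all genes) were higher at an unadjusted p under 0.05, *Rps6ka5* and *Braf* (0.11). Of 22 genes whose proteins are known RSK substrates, 2 were lower at that p, the adhesion molecule *L1cam* (-0.30) and the factor *Cebpb* (-0.16), a share of 9.09% that is close to the 8.98% of all genes, and the median was -0.01. Among 20 measured neighbours of *Rps6ka3* on the X chromosome, differences ran from -0.17 for *Map7d2* to 0.50 for *Phex*. Of these, 16 were above 0 and 4 below, with a median of 0.03, whereas 63.3% of all genes were below 0. The part of the targeted locus in these differences was not tested.

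**Figure D4:**
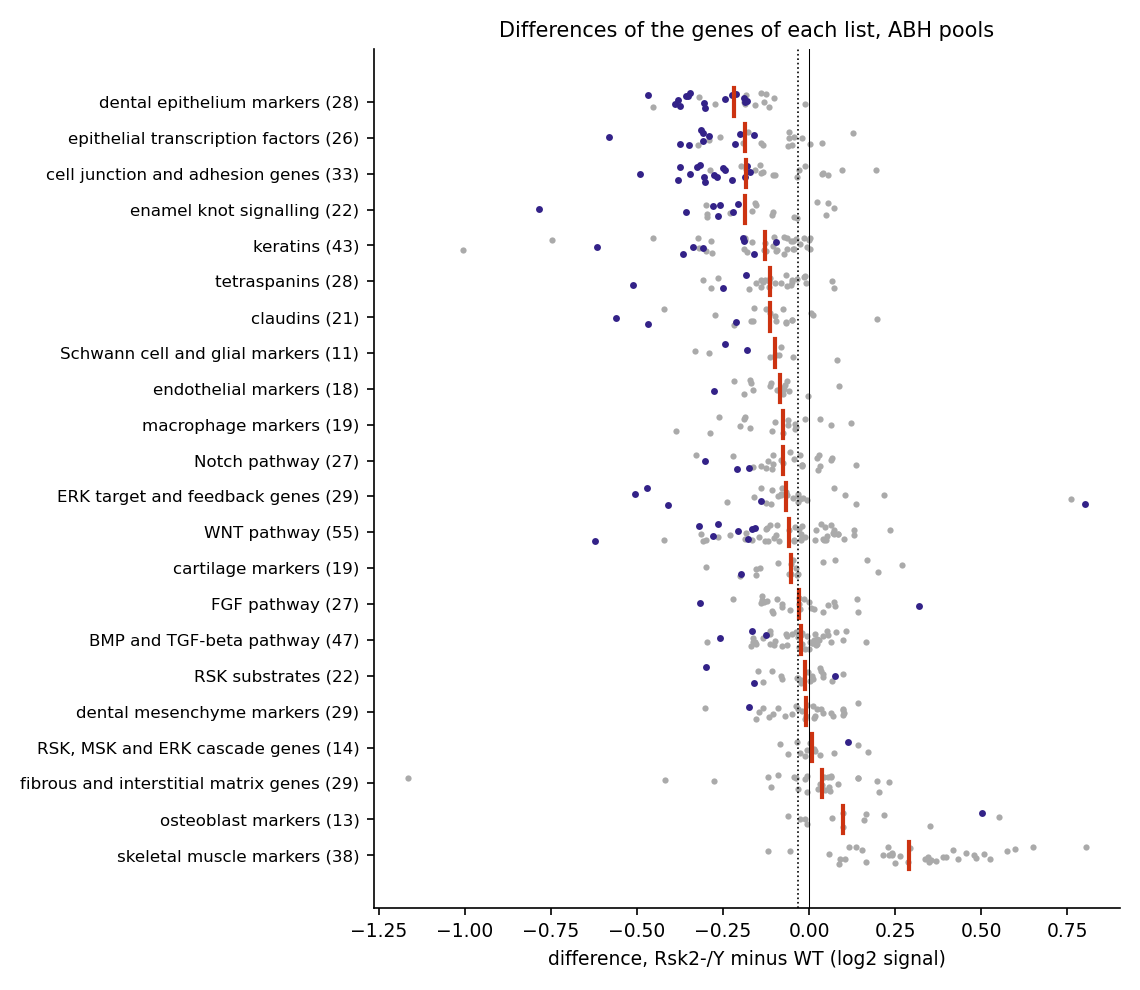
Differences between *Rsk2-/Y* and WT (log2 signal) of the genes of selected lists in the ABH pools, 1 point per gene, dark where the groups did not overlap. The liver-type and erythroid lists are among those not drawn. Red bars give the list's median and the dotted line the median over all genes, -0.03. The dental epithelium markers lie wholly below 0 with a median of -0.22, and the skeletal muscle markers lie mostly above 0 with a median of 0.29.

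Dental mesenchyme markers were split, with 13 of 29 above 0 and a median of -0.01. Without ABH_14A, 21 of the 29 were above 0 and the median was 0.07, so this pool set the side of 0. *Dlx3* and *Hand1* were the markers at an unadjusted p under 0.05, with differences of -0.30 and -0.18, and of 0.09 each in AZN. They are 6.9% of the list, against 8.98% of all genes lower at that p. *Dlx4*, another homeobox gene of the DLX family, was at 7.15 to 7.57 in WT and 6.79 to 6.93 in *Rsk2-/Y* (-0.45). *Adamts3*, a protease that processes procollagen and VEGF-C, was at 9.31, 9.35, 9.42 and 9.35 in WT and 9.68, 9.68, 9.64 and 9.69 in *Rsk2-/Y*. The groups were well apart, with a difference of 0.32 (standard error 0.046, adjusted p = 0.121 from limma), and its 16 probe sets ranged from 0.03 to 0.42. It passed after each array was centred on its median (adjusted p = 0.0783) and after quantile normalization (0.0897). With any 1 pool left out it did not pass (limma, adjusted p from 0.1035 to 0.3225). Its relatives *Adamts6* and *Adamts12* differed by 0.36 and 0.24 and the membrane metalloproteinase *Mmp16* by 0.21, all with no overlap. The 40 matrix metalloproteinase, ADAMTS and TIMP genes had a median of -0.04. With an unadjusted p under 0.05, 5 lay above 0 (12.5%, against 3.5% of all genes) and 0 below (against 8.98%). Without ABH_14A these counts were 6 (15%, against 5.82% of all genes) and 5 (12.5%, against 11.6%). Without ABH_25A they were 5 (12.5%, against 2.84% of all genes) and 3 (7.5%, against 7.26%). *Phex*, an endopeptidase of mineralising cells that regulates phosphate, was at 7.30 to 7.77 in WT and 8.01 to 8.30 in *Rsk2-/Y* (0.50), and differed by 0.71 in AZN. It is also a neighbour of the targeted gene *Rps6ka3* on the X chromosome. *Epha7*, a guidance receptor, differed by 0.27 in ABH and -0.19 in AZN.

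Muscle and liver-type markers moved with single pools. Markers of skeletal muscle had a median of 0.29 and lay above 0 in 36 of 38, and 0 reached an unadjusted p under 0.05. *Ttn*, the giant sarcomere protein, was at 10.23 in ABH_14A and at 7.30 to 8.67 in the other 7 pools. Without ABH_14A the muscle median was -0.02 and 14 of 38 markers were above 0. *Alb*, which encodes albumin, ran from 6.77 to 11.95 in WT and from 6.10 to 10.61 in *Rsk2-/Y*, and its difference of -1.01 became 0.04 without ABH_13A. The 15 liver-type genes had a median of -0.21, and the 11 erythroid markers one of -0.23, near the -0.22 of the dental epithelium markers. As each pool was left out, these ran from -0.57 to 0.18 and from -0.35 to -0.06. In AZN they were 0.52 and 0.15. Endothelial markers were below 0 in 17 of 18 (median -0.09), and in 12 of 18 without ABH_14A (median -0.03). Of all genes, 63.3% were below 0 with all pools. Schwann cell and glial markers were below 0 in 10 of 11, 4 of them with an unadjusted p under 0.05 (36.4%, against 8.98% of all genes). Their median of -0.10 ran from -0.19 to -0.09 as each pool was left out. *Erbb3*, a receptor of Schwann cells that epithelia also express, was at -0.33. The part of these tissues in the differences of other genes was not tested.

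The genotypes parted on principal component 3. It held 18.2% of the variance over the probe sets tested, and its scores were 4.63 to 9.84 in WT and -13.98 to 1.15 in *Rsk2-/Y*. The means were 7.43 ± 2.22 and -7.43 ± 6.63 (SD, n = 4; two-sided p = 0.02857 by an exact permutation test, adjusted p = 0.0857 over 3 components), and 0.02857 is the smallest p that 70 arrangements allow. The epithelial keratins *Krt13* and *Krt4*, *Ly6d* and *Shh* were among the genes weighted toward WT, and *Egr2*, *Egr1*, *Adcy8* and *Phex* among those toward *Rsk2-/Y*. Also among them were *Dpt*, *Serpina6* and *Hemgn* toward WT. Toward *Rsk2-/Y* there were *Hba-x*, *Hbb-y*, *Ibsp* and *Xist*, which was high in ABH_15A. The part of other tissues in this component was not tested. Component 1, with 30.0% of the variance, set ABH_14A at -27.88 apart from the other 7 pools at 0.83 to 10.62. Muscle genes such as *Ttn*, *Neb* and *Actn2* were weighted toward ABH_14A. The plasma protein genes *Alb*, *Serpina6* and *Afp* were weighted away from that pool, with *Alb* weighted most of all. With probe sets scaled to unit variance, or with a signal above 6 in at least 4 pools, it was component 2 that parted the genotypes and component 3 did not.

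When limma weighted each array by how far it departed from its group, 57 genes were higher (0.335%) and 128 lower (0.753%) at the same thresholds. ABH_14A had a weight of 0.274 and the other 7 pools weights of 0.809 to 1.82. The 128 lower genes included *Shh*, *Etv4*, *Etv5*, *Sfn*, *Jup*, *Spint1*, *Zfp750*, *Grhl3*, *Tbx1*, *Ovol1*, *Nectin1*, *Krt79*, *Krt80*, *Sectm1b* and *Mir205*, and the 57 higher genes included *Egr1*, *Phex*, *Adamts3*, *Epha7* and *Adcy8*. Of these 185 genes, 146 had no overlap between the groups in the unweighted values. The weights were estimated from the same 8 arrays, so these calls are no independent evidence for those genes.

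Higher and lower genes also differed in length. The median span from transcript start to end, from RefSeq (GRCm38.p6), was 20.2 kb over all genes tested, 81.3 kb over the genes higher at an unadjusted p under 0.05 and 11.8 kb over the lower ones. Of the higher genes 42.7% spanned over 100 kb, against 5.0% of the lower and 12.7% of all genes. The median difference was 0.03 over 2158 genes longer than 100 kb and -0.06 over 5221 genes shorter than 10 kb. Per pool, the median deviation of the short genes was 0.01 to 0.04 in WT and -0.04 to -0.01 in *Rsk2-/Y*, with no overlap, while that of the long genes was -0.034 to -0.0045 in WT and -0.017 to 0.034 in *Rsk2-/Y*, with ABH_14A within the range of WT. In AZN the order was turned, with -0.02 for the long and 0.01 for the short genes. The genes of the 3 epithelial lists had a median span of 18.6 kb, near that of all genes, and *Hmcn1*, *Cacna2d1*, *Lrrc4c* and *Galnt13* were among the higher genes, with differences of 0.45, 0.49, 0.57 and 0.50. The part of gene length in the differences of single genes was not tested.

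**Figure D5:**
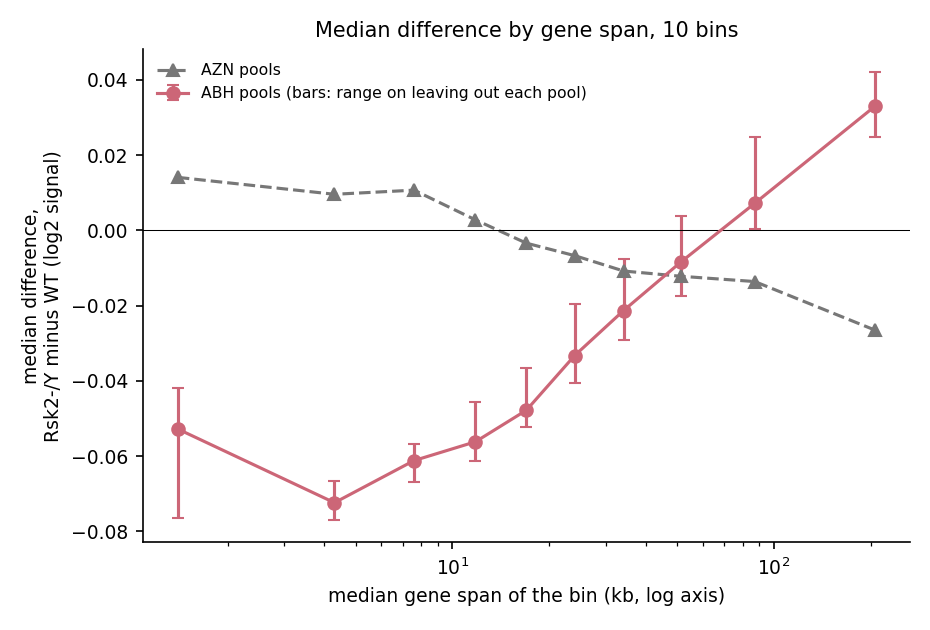
Median difference between *Rsk2-/Y* and WT (log2 signal, y axis) over 10 bins of genes by RefSeq span (kb, log x axis), for the ABH pools (bars show the range on leaving out each pool) and the AZN pools. In ABH the median goes from -0.05 at 1.4 kb and -0.07 at 4.3 kb to 0.03 at 206.2 kb, and in AZN from 0.01 to -0.03.

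The differences in ABH were not shown to be particular to it. The test of the ABH difference against the AZN difference called 0 of 19979 probe sets (limma, smallest adjusted p = 0.213), with 478 (2.39%) higher and 752 (3.76%) lower in ABH at an unadjusted p under 0.05. Of the 1527 genes lower in ABH at that level, 55.0% were below 0 in AZN, where 51.4% of all genes were, and of the 595 higher genes 45.5% were above 0 in AZN, where 48.6% were. For the dental epithelium markers the AZN median was -0.22, and -0.12 without the pool AZN_MolairesMutant3. For the enamel knot genes it was -0.04 in AZN, and 0.06 without that pool.

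Genes that the study followed by qRT-PCR lay close to 0 in ABH. *Rdh1*, a retinol dehydrogenase, was at 6.04 to 6.10 in WT and at 6.15 to 6.42 in *Rsk2-/Y*, with no overlap and a difference of 0.15 (limma, adjusted p = 0.388), which was 0.08 without ABH_14A, the pool at 6.42. *Eaf2*, a transcription elongation factor, differed by -0.08 (-0.03 without ABH_26A) and *Mdm2*, the ligase that targets p53, by 0.12, with overlapping groups. Among 29 retinoid genes, *Dhrs3*, which reduces retinaldehyde, was at 8.90 to 9.08 and 8.50 to 8.79 (-0.33). At an unadjusted p under 0.05, 4 of the 29 were lower (13.8%, against 8.98% of all genes) and 0 higher (against 3.5%). The heat shock genes *Hspb1* and *Hspa1a*, which handling of tissue can induce, differed by -0.47 and -0.35 with no overlap, opposite in side to *Egr1* of the same list, and handling was not tested.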

How the data were processed

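Total RNA of pooled mandibular molar germs was hybridised to Affymetrix Mouse Gene 1.0 ST arrays. The deposited table gives a log2 signal for each probe set. According to the submitters' processing notes the authors used RMA in Affymetrix Expression Console (1.3.1.187), which corrects background, equalises the arrays and summarises probes, and no further normalization was applied. The platform annotation gives 1 gene symbol for 21789 of 35556 probe sets, several for 1621 and none for 12146.

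The ABH groups were tested in R 4.3.3 by limma 3.58.1 (lmFit, eBayes, two-sided, no covariate), with Benjamini-Hochberg adjustment over 19743 probe sets. Calls needed the study's false discovery rate below 0.1 and 1.2-fold change. A gene was read from its own probe set with the highest mean signal. Lists were described by counts and medians, with no test. Named genes are those called, the 15 largest differences without overlap in each direction (mean signal above 6), up to 4 genes per list by p, and the RSK, microRNA cluster, qRT-PCR, sex-linked and *Rps6ka3* neighbour genes. Members and lists were chosen with earlier results of these data known. A list of histone genes matched no symbol. Gene spans and microRNA sequences come from RefSeq (GRCm38.p6). The fit was tested on simulated data. Alternatives were leaving out each pool or both ABH_25A and ABH_26A, a block for the code run, other filters, centring, quantile normalization, array weights, an intensity trend, robust moderation, a fit of all 4 groups and the methods' t-test. Python 3.11.15, NumPy 2.4.6, pandas 2.3.3 and matplotlib 3.10.9 were used.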

Additional observations from a re-analysis of the deposited data

Results flagged for a closer look

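In groups of 4 pools, a pool was picked out when the ratio of its gap to the nearest other pool and the group's range was above Dixon's 95% critical value, which chance alone gives in about 1 of 20 groups. This held for 29 of the 256 groups examined (11.3%). The WT pool ABH_25A was the highest of its group for *Cldn6* (10.78), *Zfp750* (10.13), *Cldn1* (10.83), *Ly6d* (7.92) and *Jag2* (9.04), and for the means of the keratins (7.15) and of the Schwann cell and glial markers (8.21). The WT pool ABH_13A was lowest for *Adamtsl3* (7.14) and highest for *Xist* (6.14), and ABH_11A was highest for *Fbn2* (11.44). Among *Rsk2-/Y* pools, ABH_14A was lowest for *Rps6ka3* (10.08) and highest for *Mir181b-2* (8.91) and *Rdh1* (6.42). It was also lowest for the means of the tetraspanins (8.29), the ERK target and feedback genes (8.44), the RSK substrates (9.12), the dental mesenchyme markers (9.69) and the fibrous and interstitial matrix genes (9.60), and for component 1 (-27.88). ABH_15A was lowest for *Ovol1* (6.24), *Gli1* (9.02) and *Map7d2* (5.44), and highest for *Galnt13* (7.52) and the mean of the liver-type plasma protein genes (7.67). ABH_26A was lowest for *Krt75* (8.25) and *Wnt6* (7.07), and highest for *Fgf7* (7.35), *Lrrc4c* (7.01) and *Mmp16* (10.09).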

How the results depend on the processing

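No paired analysis was possible because the ABH code numbers of WT and *Rsk2-/Y* pools share none. Counts of probe sets called, 1 higher and 2 lower with all pools, were most open to the processing. They were 119 and 141 with array weights, 5 and 9 with an intensity trend, 4 and 4 with a signal above 6 in at least 4 pools, 4 and 4 with quantile normalization, 5 and 3 after centring, 3 and 3 by the methods' t-test, 1 and 1 with the code-run block, and 0 and 0 in the fit of all 4 groups and without both ABH_25A and ABH_26A. With 1 pool left out they ran from 0 to 5 higher and from 0 to 4 lower, the highest without ABH_14A. At an unadjusted p under 0.05, 873 were higher and 1698 lower, against 1370 higher with array weights, 560 higher in the fit of all 4 groups and 1102 lower after centring, and with 1 pool left out from 579 to 1296 higher and from 1264 to 2230 lower. Without overlap, 560 were higher and 1124 lower, against 865 and 669 after centring, 1120 and 2243 without both ABH_25A and ABH_26A, and with 1 pool left out from 648 to 1297 and from 1474 to 2029, where fewer pools make no overlap easier. Component 2 had a difference between group means of -116.49 when probe sets were scaled and of -13.10 with the stricter signal filter (exact permutation p = 0.02857 each), and component 3 then had -18.39 and -1.28 (p = 0.6571 and 0.9143). With 1 pool left out, the tetraspanin median ran from -0.13 to -0.073 and the RSK substrate median from -0.03 to 0.014. The median of epithelial transcription factors was -0.10 without both ABH_25A and ABH_26A. *Rps6ka6* changed sign without ABH_12A (-0.020), ABH_25A (-0.0495), ABH_16A (-0.0031), ABH_26A (-0.034) or both ABH_25A and ABH_26A (-0.0846), and reached 0.0466 without ABH_11A. So did *Mir125a* without ABH_14A (-0.0399, and 0.0939 without ABH_15A) and with array weights (-0.0101), *Alb* without ABH_13A (0.0426, and -1.96 without ABH_15A) and *Xist* without ABH_15A (-0.16, and 0.63 without ABH_16A). Apart from the shares named here, the cause of these changes was not tested. Of the values for single genes under these alternatives, 1170 kept their side of 0 and of the threshold. Another 34 gained a call, 22 lost one and 9 changed sign. The 22 were all of *Mir125b-1*, *Cldn6* and *Cd9*, the only genes of the 95 examined that were called with all pools. For the other genes staying uncalled counts as kept, so the 1170 say little about how firm the results are. Signals close to 5 are near background, where 4 arrays per group show little.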
